A study of Mus musculus with 11 samples.

Results

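Traced (tdT+) and untraced (tdT-) cells of the Sca-1+ gate of mouse dorsal epidermis were compared by bulk RNA sequencing. The comparison rests on 5 of the 11 libraries of the series, taken by their labels: 3 Sca-1+ tdT+ libraries and 2 Sca-1+ tdT- libraries. All came from male CD4Cre R26-tdT mice on the C57Bl6/N strain, in which the Cd4 promoter drives Cre and a cell that has expressed it, with its progeny, keeps the tdTomato reporter (tdT). Epidermal cells were freed with thermolysin and sorted as CD49f+ CD34+ Sca-1+ cells with or without tdT, so both groups share the transgenes, the gate and the enzyme step. Each library pools 2 mice, aged 29 weeks in replicate 1 of each group and 32 weeks in the others. A pool of animals gives 1 value, and a Cre under the Cd4 promoter marks any lineage in which that promoter was ever active. The other 6 libraries, Sca-1neg tdT+ and Sca-1neg tdT- cells of the same strain (3 each), lie outside the comparison. They entered the model through the low-count filter, the scaling and the shared estimate of spread. Replicates 1 and 3 of Sca-1neg tdT- also serve as reference levels.

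CD49f (the integrin subunit of Itga6) sits on basal keratinocytes, CD34 is a surface marker of the bulge, the stem cell niche of the hair follicle in mice, and Sca-1 (the product of Ly6a) is found on cells of the upper follicle and interfollicular epidermis. All 3 surface proteins are known beyond keratinocytes, since endothelial cells carry CD49f, CD34 and Sca-1, and many leukocytes carry Sca-1. The mouse epidermis holds its own leukocytes, namely Langerhans cells and gamma-delta and alpha-beta T cells held there by the integrin CD103. For these reasons genes of leukocytes, of endothelium and of keratinocytes are described apart.

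Gene counts summed to 36593970, 17409131 and 19944731 in Sca-1+ tdT+ replicates 1 to 3, and to 30078680 and 23666873 in Sca-1+ tdT- replicates 1 and 2. The tracer transcript was read from the 1 entry that carries a protein identifier. It stood at 254, 224 and 307 CPM (counts scaled to the same total in every library) in the tdT+ libraries. In the tdT- libraries it stood at 4.89 and 4.10 CPM, without overlap. The entry was taken for the tracer because of its levels, so they do not test the sort. Spearman correlations between replicates over genes were 0.956 to 0.969 in tdT+ and 0.971 in tdT-. By age the labels set replicate 1 (29 weeks) apart from the others of its group (32 weeks), and do not tell tdT+ replicates 2 and 3 apart. They do not say whether the pools were prepared separately, so p-values measure the spread between these libraries. Among the Sca-1neg libraries, 3 held liver transcripts (Alb at up to 9564 CPM, against at most 37.3 CPM in the other 8 libraries of the series). 1 of these 3, labelled tdT+ replicate 2, had its tracer at 2.05 CPM, which is the untraced level.

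Of 20307 genes tested, 80 were higher in Sca-1+ tdT+ cells (0.394%) and 476 lower (2.34%), by the quasi-likelihood test of edgeR at a Benjamini-Hochberg adjusted p under 0.05 (2.74% in all). The 80 higher genes had a median log2 fold change of 1.71, and 20 of them stood on leukocyte lists and none on an endothelium or keratinocyte list. Of the 476 lower genes, 18 stood on keratinocyte lists, 5 on endothelium lists, 6 on lists of other cell types and 440 on no list. The 18 were 10 bulge, 2 hair and 6 basement membrane genes. The basement membrane list was set with the keratinocyte lists, although it also holds Lama4, a laminin chain of vessel walls. The 476 had a median size of 2.19 on the log2 scale, and 264 differed at least 4-fold (2 on that scale). Over all genes tested the median log2 fold change was 0.04, and the 5 libraries separated without overlap in 3215 genes toward higher (15.8%) and 3492 toward lower (17.2%). All 80 higher and all 476 lower genes were among these.

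**Figure D1:**
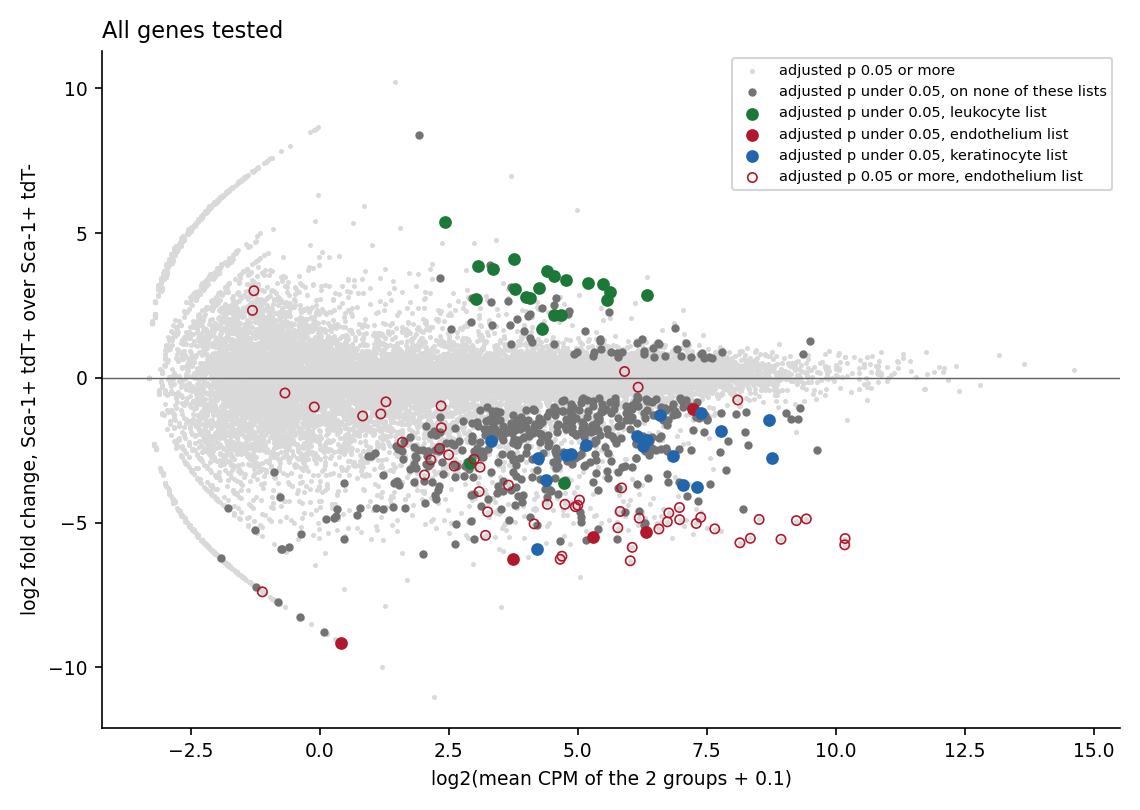
Every gene tested, by its mean level over both groups (log2 of mean CPM plus 0.1, horizontal) and its log2 fold change in Sca-1+ tdT+ over Sca-1+ tdT- libraries (vertical). Called leukocyte genes (green) lie above 0 apart from 2. Called genes of keratinocyte lists (blue, basement membrane genes among them) lie below 0. Most endothelium genes lie below -4 as open circles, which mark an adjusted p of 0.05 or more. The curved edges at the left are genes with no count in 1 group, whose fitted values depend on the prior count.

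Part of the T cell genes rose in traced cells. Of 25 tested genes of the T cell receptor and T cell identity list, 10 rose and 0 fell (median log2 fold change 3.05, against 0.04 over all genes). In 24 of the 25 the tdT+ libraries lay higher without overlap, as in 15.8% of all genes tested. The list summed to 445, 1233 and 843 CPM in the tdT+ libraries and to 113 and 92.4 CPM in the tdT- libraries, which is 8.17-fold in the means. In the 2 Sca-1neg tdT- libraries without liver transcripts (replicates 1 and 3) it summed to 19.9 and 20.5 CPM. In bulk RNA, more cells of a type and more RNA per cell cannot be told apart, here or in any result that follows.

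The receptor chains came first. Cd3e (chromosome 9, 44998740 to 45009627), which passes the signal of the receptor on, was 47.1, 118 and 95.5 CPM in tdT+ and 9.78 and 12.6 CPM in tdT- libraries (log2 fold change 2.95 ± 0.51 SE, adjusted p = 0.0133). Every tdT+ library was above both tdT- libraries, and replicate 1 was the lowest of the 3. Trac (chromosome 14, 54220521 to 54224206), the constant segment of the alpha chain, was 15.5, 35.3 and 25.9 CPM against 1.61 and 1.34 CPM (4.11 ± 0.69, adjusted p = 0.00994). Trdc, the constant segment of the delta chain, was 53.9, 92.9 and 89.9 CPM against 19.9 and 18.1 CPM, also without overlap, and did not pass (2.05 ± 0.75, adjusted p = 0.238). Both an alpha and a delta chain were therefore read in tdT+ and in tdT- libraries. In CPM per kilobase of exon, the mean levels in tdT+ were 27.4 for Trac and 20.4 for Trdc, and in tdT- they were 1.58 and 4.92. Trbc2, the constant segment of a beta chain with a near-identical copy in Trbc1, rose by 2.17 ± 0.45, and reads shared with that copy make its size uncertain.

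Some signalling genes behind the receptor rose too. Zap70, a kinase recruited to the receptor, was 19.4, 39.0 and 24.7 CPM in tdT+ and 4.81 and 3.18 CPM in tdT- libraries (2.79 ± 0.52, adjusted p = 0.0172). Cd3d, the adaptor genes Lat and Sit1, and the adhesion receptor genes Cd2 and Cd96 rose by 2.75 to 5.39 on the log2 scale. The kinase gene Lck was 24.99, 56.9 and 50.01 CPM against 6.33 and 6.45 CPM and missed the threshold (adjusted p = 0.0901). The coreceptor gene Cd8a was 27.6, 85.9 and 73.5 CPM in tdT+ and 2.18 and 0 CPM in tdT- libraries, and Cd8b1 was 10.7, 35.5 and 30.7 CPM against 0.380 and 0 CPM. Neither passed (adjusted p = 0.124 and 0.101), although the groups lay far apart. Cd4, whose promoter drives the Cre, was 4.64, 4.09 and 0.877 CPM in tdT+ and 0.949 and 0.126 CPM in tdT- libraries, with overlap and an adjusted p of 0.422.

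The count of 10 moved with the libraries. Leaving out untraced replicate 1 gave 2 and leaving out untraced replicate 2 gave 0; for traced replicates 2 and 3 the numbers were 5 and 6, and the 32-week libraries alone gave 2. It was 20 in a fit of the 5 Sca-1+ libraries (where 0.816% of 17392 genes were higher and 4.69% lower, 5.5% in all) and 20 without the 3 libraries with liver transcripts (0.843% higher and 5.15% lower of 21477, 5.99% in all).

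Of 21 tested effector genes of cytotoxic and tissue-resident lymphocytes, 8 rose and 0 fell (median 2.74), and the list summed to 433, 978 and 855 CPM in tdT+ and to 123 and 92.9 CPM in tdT- libraries. Cxcr6 (chromosome 9, 123806475 to 123811760), a chemokine receptor of tissue-resident T cells, was 24.8, 52.4 and 51.1 CPM against 4.40 and 3.06 CPM (3.52 ± 0.44, adjusted p = 0.00195). It was past the threshold in all 22 alternatives, and it was the 1 higher gene left when untraced replicate 2 was dropped. Itgae (chromosome 11, 73090583 to 73147446), the CD103 integrin that binds E-cadherin of keratinocytes, was 85.8, 173 and 169 CPM against 26.1 and 13.4 CPM (2.85 ± 0.50, adjusted p = 0.0148). Cd7, a surface protein of T and natural killer cells, was 52.4, 111 and 81.5 CPM against 13.2 and 12.2 CPM (2.68 ± 0.39, adjusted p = 0.00452). In each of these 3 genes, tdT+ replicate 1 was the lowest of the traced libraries and stood well above the untraced ones.

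The granule genes Ctsw and Nkg7, the chemokine gene Xcl1, the transcription factor gene Tbx21 and the costimulatory receptor gene Jaml rose as well, by 2.74 to 3.86 on the log2 scale. Il2rb, the shared chain of the receptors for interleukins 2 and 15, was 72.5, 148 and 134 CPM against 20.8 and 18.7 CPM (2.58 ± 0.60, adjusted p = 0.0601). The killing genes Prf1 and Gzmb had adjusted p of 0.229 and 0.383; Gzmb was 11.1, 23.8 and 28.5 CPM against 4.05 and 0.251 CPM. Ncr1 and Eomes, known from natural killer cells, were below the low-count filter, with Ncr1 at 0 in all 3 tdT+ libraries. The count of 8 became 3 and 1 when untraced replicates 1 and 2 were dropped in turn, 4 when traced replicate 3 was, 4 in the 32-week libraries alone, and 15 in the fit of 5 libraries.

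**Figure D2:**
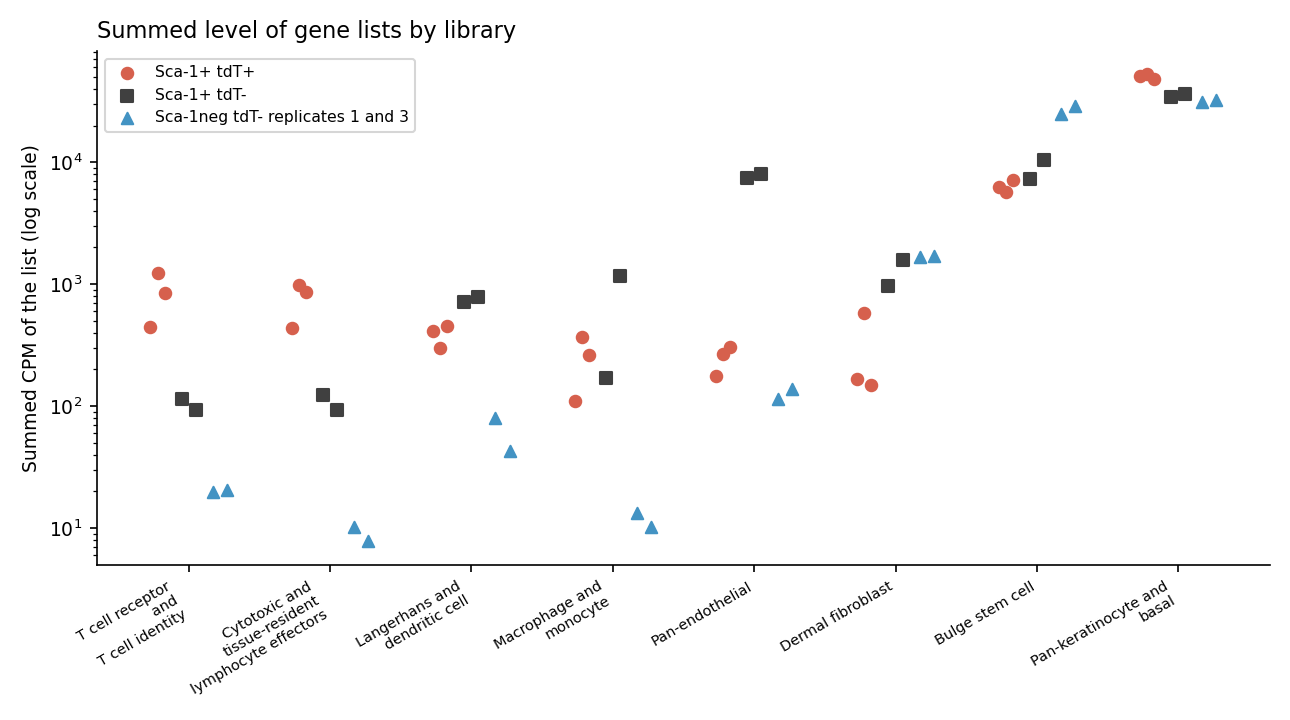
Summed CPM of all members of 8 gene lists (log scale) in each library: Sca-1+ tdT+ (circles), Sca-1+ tdT- (squares) and, for reference, Sca-1neg tdT- replicates 1 and 3 (triangles). T cell and cytotoxic sums are 92.4 to 123 CPM in the untraced libraries against 433 CPM and more in the traced ones, pan-endothelial sums are 7421 and 8011 CPM against at most 308 CPM, and pan-keratinocyte sums stay between 34110 and 52800 CPM in the 5 Sca-1+ libraries.

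Few other leukocyte genes passed. Of 26 pan-leukocyte genes, 2 rose: Ikzf1, a zinc finger factor of lymphoid cells (29.1, 48.2 and 47.1 CPM against 7.34 and 11.1 CPM, adjusted p = 0.0271), and Runx3, a factor of cytotoxic lymphocytes, which is also known in skin epithelium (25.8, 27.3 and 37.3 CPM against 8.57 and 10.2 CPM, adjusted p = 0.0371). The CD45 gene Ptprc was 141, 228 and 180 CPM against 40.4 and 58.5 CPM and had an adjusted p of 0.456. In the fit of the 5 libraries its adjusted p was 0.00629, and 7 of the 26 rose. The pan-leukocyte list summed to 828 to 1422 CPM in tdT+ and to 376 and 664 CPM in tdT- libraries. Dropping traced replicate 2, traced replicate 3 or either untraced library left 0 of the list, and dropping any other library left 1 to 4.

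Most Langerhans and dendritic cell genes lay on the other side of 0. Of 17, 1 fell and 0 rose (median -0.84), with 15 below 0 and 2 above (up to 3.15). The member that fell was Zbtb46, a factor known from classical dendritic cells and from endothelium, at 0.799, 1.02 and 3.25 CPM in tdT+ and 16.04 and 10.05 CPM in tdT- libraries (-2.95 ± 0.63, adjusted p = 0.0328). In 8 of the 17 the tdT+ libraries lay lower without overlap (17.2% of all genes tested did). The class II genes H2-Aa, H2-Ab1, H2-Eb1 and Cd74 were among these 8 and did not pass. Cd74, the invariant chain, was 161, 94.5 and 164 CPM against 284 and 327 CPM (adjusted p = 0.607, and 0.0276 in the fit of 5 libraries). Cd207 (langerin), the defining gene of Langerhans cells, was 10.4, 5.57 and 19.1 CPM against 21.4 and 9.34 CPM, with overlap. The whole list summed to 414, 301 and 451 CPM in tdT+ and to 714 and 783 CPM in tdT- libraries.

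None of 18 macrophage and monocyte genes passed, and the 2 untraced libraries disagreed among themselves. Lyz2, the lysozyme of macrophages, was 38.2 CPM in Sca-1+ tdT- replicate 1 and 352 CPM in replicate 2, and 22.9, 84.1 and 59.6 CPM in tdT+. The list summed to 169 and 1166 CPM in the 2 tdT- libraries and to 109, 368 and 261 CPM in tdT+, and all 18 members were higher in tdT- replicate 2 than in replicate 1. Of 2 tested mast cell genes 1 fell, Hdc, which makes histamine (2.42, 7.21 and 2.37 CPM against 36.6 and 61.9 CPM, adjusted p = 0.0213). Of the 9 mast cell genes Cpa3 and Fcer1a were at 0 in all 5 libraries, and 4 genes were at 0 throughout tdT+ and 5 throughout tdT-. None of 6 tested B cell genes and none of 4 tested neutrophil genes passed.

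Endothelial genes lay far apart between the groups. The 27 pan-endothelial genes summed to 177, 268 and 308 CPM in tdT+ and to 7421 and 8011 CPM in tdT- libraries, a 30.7-fold difference of the means. All 27 separated without overlap toward lower in traced cells (17.2% of all genes tested did), with a median log2 fold change of -5.03. Only 2 passed the test in the model of all 11 libraries, Egfl7 and Ramp2, while 25 fell in the fit of the 5 Sca-1+ libraries and 26 without the 3 libraries with liver transcripts.

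Egfl7 (chromosome 2, 26580014 to 26593120), a protein secreted by endothelial cells, was 3.44, 5.17 and 2.94 CPM in tdT+ and 152 and 159 CPM in tdT- libraries (-5.34 ± 1.03, adjusted p = 0.0368). Ramp2 (chromosome 11, 101246028 to 101259546), the partner of the adrenomedullin receptor, was 2.56, 1.82 and 0.568 CPM against 78.3 and 74.7 CPM (-5.51 ± 0.61, adjusted p = 0.0013). The replicates of each group lay close together in both genes, and the call of Egfl7 was lost in 11 of 22 alternatives and that of Ramp2 in 1. Among junction and receptor genes, Pecam1 was 13.3, 32.9 and 25.3 CPM against 688 and 728 CPM (-4.89 ± 1.75, adjusted p = 0.253), and Cdh5 (VE-cadherin) was 7.20, 7.44 and 17.0 CPM against 364 and 421 CPM (-5.22 ± 1.67, adjusted p = 0.195). The fit of the 5 libraries gave an adjusted p of 2.3e-04 for each. Vwf, a clotting protein stored by endothelial cells, was 19.5, 31.9 and 73.5 CPM against 2195 and 2346 CPM (-5.77 ± 2.12, adjusted p = 0.266). Kdr, the main receptor for VEGF-A, was 1.57, 4.26 and 3.04 CPM against 106 CPM in each tdT- library. Plvap, of the diaphragms of fenestrated vessels, was 10.98, 29.8 and 19.7 CPM against 847 and 1075 CPM. Sox7, a factor shared with other cells, was the exception in size, at 61.9 to 65.6 CPM against 78.7 and 81.0 CPM (-0.32 ± 0.14).

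The model takes its spread from all groups, including the Sca-1neg libraries, which lie outside the comparison. The highest level of Pecam1 among them, 175 CPM, was in the one labelled tdT+ replicate 2, and the other 5 had 1.05 to 19.6 CPM. The pan-endothelial list summed to 1785 CPM in that library and to 61.6 to 341 CPM in the other Sca-1neg libraries. Dropping that library gave 11 lower pan-endothelial genes, and dropping replicate 3 of the same group gave 15; dropping any other single library gave 1 or 2. Over all genes tested, 548 of 20392 were lower without Sca-1neg tdT+ replicate 2 and 679 of 20347 without replicate 3 of that group. The model of all libraries had 476 of 20307. DESeq2 on all libraries gave a p-value for 16 of the 27 pan-endothelial genes, and 13 of these fell. By that test 1.68% of 20307 genes were higher and 5.43% lower (7.11% in all).

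The lists for single vessel types were not tested against each other. Of 12 capillary genes 2 fell, both factors of mesoderm. In all, 10 of the 12 had a log2 fold change below 0 and 2 above (up to 3.01). Toward higher in tdT+, 2 separated without overlap (15.8% of all genes tested did), and 0 passed. Meox1 was 0.133, 0.284 and 0.619 CPM against 24.3 and 28.2 CPM (-6.27 ± 1.33, adjusted p = 0.0386). Tcf15 had no count in any tdT+ library and 141 counts in the 2 tdT- libraries (3.01 and 1.93 CPM), which is at least 61.3-fold lower in tdT+ against a floor of 3 counts over the group (adjusted p = 0.0316). The water channel gene Aqp1 was 19.4, 76.1 and 50.2 CPM against 2294 and 2256 CPM and did not pass (adjusted p = 0.249). The capillary list had a median of -4.93, or -4.73 with genes that lack counts in 1 group set at their bound, and 8 of its genes fell in the fit of 5 libraries. Dropping any 1 of the 5 Sca-1+ libraries left 0 capillary calls, dropping the library labelled Sca-1neg tdT+ replicate 2 gave 4, and dropping any other Sca-1neg library gave 0 to 3.

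Of 6 venous genes 1 fell, Ephb4, an ephrin receptor of veins that is also read in the Sca-1neg tdT- libraries at 202 and 206 CPM. It was 94.7, 84.5 and 114 CPM in tdT+ and 188 and 220 CPM in tdT- libraries (-1.06 ± 0.15, adjusted p = 0.00413). The leukocyte-capture genes Selp and Sele were 33.1 to 52.1 and 18.7 to 63.5 CPM in tdT+ against at least 1319 and 1126 CPM in tdT- libraries, with adjusted p of 0.353 and 0.376. In the fit of 5 libraries 5 venous genes fell, Selp and Sele among them, whereas dropping untraced replicate 2 left 0. None of 10 arterial genes passed (median -1.11; 2 fell in the fit of 5 libraries): Efnb2, the ligand of Ephb4, was 198 to 209 CPM in tdT+ and 276 and 415 CPM in tdT-, and 523 and 545 CPM in the Sca-1neg tdT- reference libraries. None of 5 tested lymphatic genes passed (median -2.81; 2 fell in the fit of 5 libraries).

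Of 20 angiogenic ligands and receptors 2 fell and 0 rose. Nrp2, a coreceptor for semaphorins and VEGF, was 11.1, 21.5 and 16.1 CPM against 189 and 207 CPM (-3.61 ± 0.32, adjusted p = 3.16e-04), and Angpt2, the Tek ligand made by endothelium, was 0.959, 0.398 and 1.34 CPM against 13.8 and 15.6 CPM (adjusted p = 0.0104). Vegfa itself was 139, 85.7 and 75.2 CPM against 80.1 and 93.6 CPM, with overlap. The fit of 5 libraries gave 8 lower genes, among them Plxnd1, S1pr1 and Edn1. Dropping untraced replicate 2 left 1, and dropping Sca-1neg tdT+ replicate 3 gave 4.

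**Figure D3:**
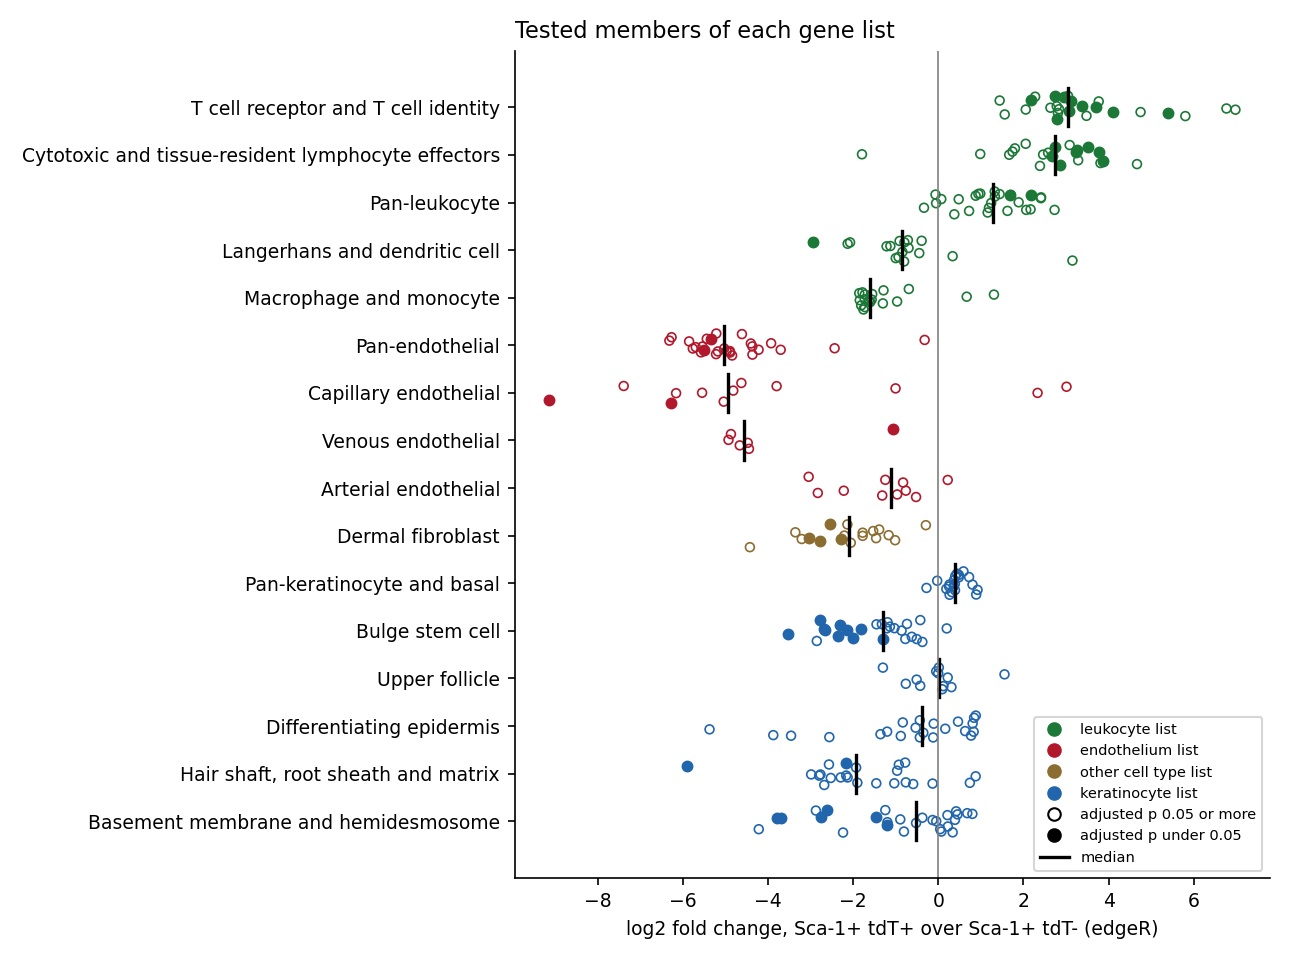
Log2 fold change (Sca-1+ tdT+ over Sca-1+ tdT-, horizontal) of every tested member of 16 gene lists, with filled circles for an adjusted p under 0.05 in the model of all 11 libraries and a bar at each median. The T cell list has its median at 3.05 and the pan-endothelial list at -5.03 with 2 filled circles, the pan-keratinocyte list lies tightly around 0.39, and the bulge list reaches from -3.54 to 0.20.

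The sequence before the start of 3 members is shown as an example of each group of genes described, since AGGAAG, a core of sites bound by the ETS family of factors, is known from promoters of lymphoid and endothelial genes. The 250 bases upstream of the start come from RefSeq (GRCm38.p6), 5′ to 3′ on the strand of the gene, with each AGGAAG, or CTTCCT for the other strand, in capitals. They lie at chr9:45009612-45009861 (minus strand) for Cd3e, chr2:26580833-26581082 (plus strand, the first of 3 RefSeq start sites) for Egfl7, and chr2:38339031-38339280 (plus strand, the first of 2) for the bulge gene Lhx2. The Egfl7 window lies inside the gene as GENCODE places it, from 26580014, so it precedes a RefSeq start and not the first annotated one.
Cd3e: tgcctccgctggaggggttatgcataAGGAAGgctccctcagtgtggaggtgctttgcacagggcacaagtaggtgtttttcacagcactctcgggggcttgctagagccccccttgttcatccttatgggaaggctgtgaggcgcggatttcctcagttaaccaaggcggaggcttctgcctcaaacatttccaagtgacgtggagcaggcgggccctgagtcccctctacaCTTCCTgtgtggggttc
Egfl7: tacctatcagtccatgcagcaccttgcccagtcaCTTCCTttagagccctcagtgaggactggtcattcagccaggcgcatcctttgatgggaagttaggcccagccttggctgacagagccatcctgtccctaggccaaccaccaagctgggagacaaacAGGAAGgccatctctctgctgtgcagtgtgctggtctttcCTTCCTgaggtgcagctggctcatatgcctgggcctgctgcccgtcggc
Lhx2: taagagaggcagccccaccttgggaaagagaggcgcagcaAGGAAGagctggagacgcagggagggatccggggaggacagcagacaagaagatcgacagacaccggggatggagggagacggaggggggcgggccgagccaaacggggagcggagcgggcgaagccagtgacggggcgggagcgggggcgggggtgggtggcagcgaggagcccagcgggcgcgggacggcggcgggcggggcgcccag

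The letters occur 2 times before Cd3e, 3 times before Egfl7 and once before Lhx2. Over the first start site of 27025 genes, 29.2% of such windows hold them. Of the list members with an entry, they are held by 8 of 14 T cell genes, 7 of 13 pan-endothelial genes and 4 of 15 bulge genes. A match is a description of these windows and shows no binding.

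Keratinocyte identity genes were abundant in both groups, and none of them passed the test. Of 20 pan-keratinocyte and basal genes 0 passed, with log2 fold changes from -0.28 to 0.92 (median 0.39). Of these, 18 were above 0 and 14 lay higher in tdT+ without overlap (15.8% of all genes tested did). The list summed to 51150, 52800 and 48560 CPM in tdT+ and to 34110 and 36330 CPM in tdT- libraries, a 1.44-fold difference of the means. Krt5, a keratin of basal cells, was 16210, 15600 and 13330 CPM against 9608 and 11990 CPM (adjusted p = 0.313), and Krt14, its partner, was 11350, 14630 and 9306 CPM against 6293 and 7203 CPM (adjusted p = 0.14). Trp63, the factor of stratified epithelia, was 944 to 1139 CPM against 793 and 816 CPM. DESeq2 called 4 of the 20 higher, voom 2 and the fit of 5 libraries 0. Over all 20307 genes, DESeq2 called 341 higher (1.68%) and voom 244.

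Bulge stem cell genes fell in part. Of 25, 10 fell and 0 rose (median -1.3), and 17 lay lower without overlap (17.2% of all genes tested did). Among the transcription factor genes, Tcf7l1 (chromosome 6, 72626378 to 72789254), which represses Wnt targets in follicle stem cells, was 3.04, 3.29 and 3.51 CPM in tdT+ and 31.5 and 44.8 CPM in tdT- libraries (-3.54 ± 0.27, adjusted p = 2.25e-04). Lhx2 (chromosome 2, 38339281 to 38369733), a homeodomain factor of the bulge, was 21.5, 42.7 and 28.5 CPM against 120 and 280 CPM (-2.69 ± 0.36, adjusted p = 0.00337). Tbx1, a T-box factor, was 19.8, 31.1 and 24.5 CPM against 68.0 and 190 CPM (-2.36 ± 0.36, adjusted p = 0.00626). The groups did not overlap in these 3 genes, and tdT- replicate 2 stood above replicate 1 in 24 of the 25 genes of the list.

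Among secreted bulge proteins, Bmp6 was 3.68, 3.63 and 6.92 CPM against 33.7 and 31.6 CPM (-2.78 ± 0.39), and Ltbp2, which binds the fibrillin matrix, was 10.1, 5.51 and 6.61 CPM against 39.2 and 55.3 CPM (-2.67 ± 0.37). The Wnt antagonist genes Dkk3 and Sfrp1 fell by 2.01 and 1.82. The receptor gene Lgr5 was 9.09, 19.0 and 7.74 CPM against 56.6 and 61.6 CPM (-2.31 ± 0.41, adjusted p = 0.0179), and the surface protein genes Cd200 (24.9 to 34.9 CPM against 121 and 142 CPM) and Alcam (46.5 to 72.1 CPM against 111 and 162 CPM) fell too. Each of these was higher still in the Sca-1neg tdT- libraries, at 359 and 387 CPM for Lgr5 and at 715 and 743 CPM for Lhx2. Other bulge genes did not pass. Krt15, the bulge keratin, was 4259, 3018 and 5040 CPM in tdT+ and 3425 and 3743 CPM in tdT-, with overlap (0.20 ± 0.26). Sox9, a factor of the outer root sheath, was 92.6, 108 and 163 CPM against 176 and 386 CPM (adjusted p = 0.184), and Nfatc1, which keeps bulge cells quiescent, was 117, 111 and 162 CPM against 201 and 393 CPM (adjusted p = 0.213). The count of 10 became 4 when untraced replicate 2 was dropped, and 4 in the 32-week libraries alone.

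**Figure D4:**
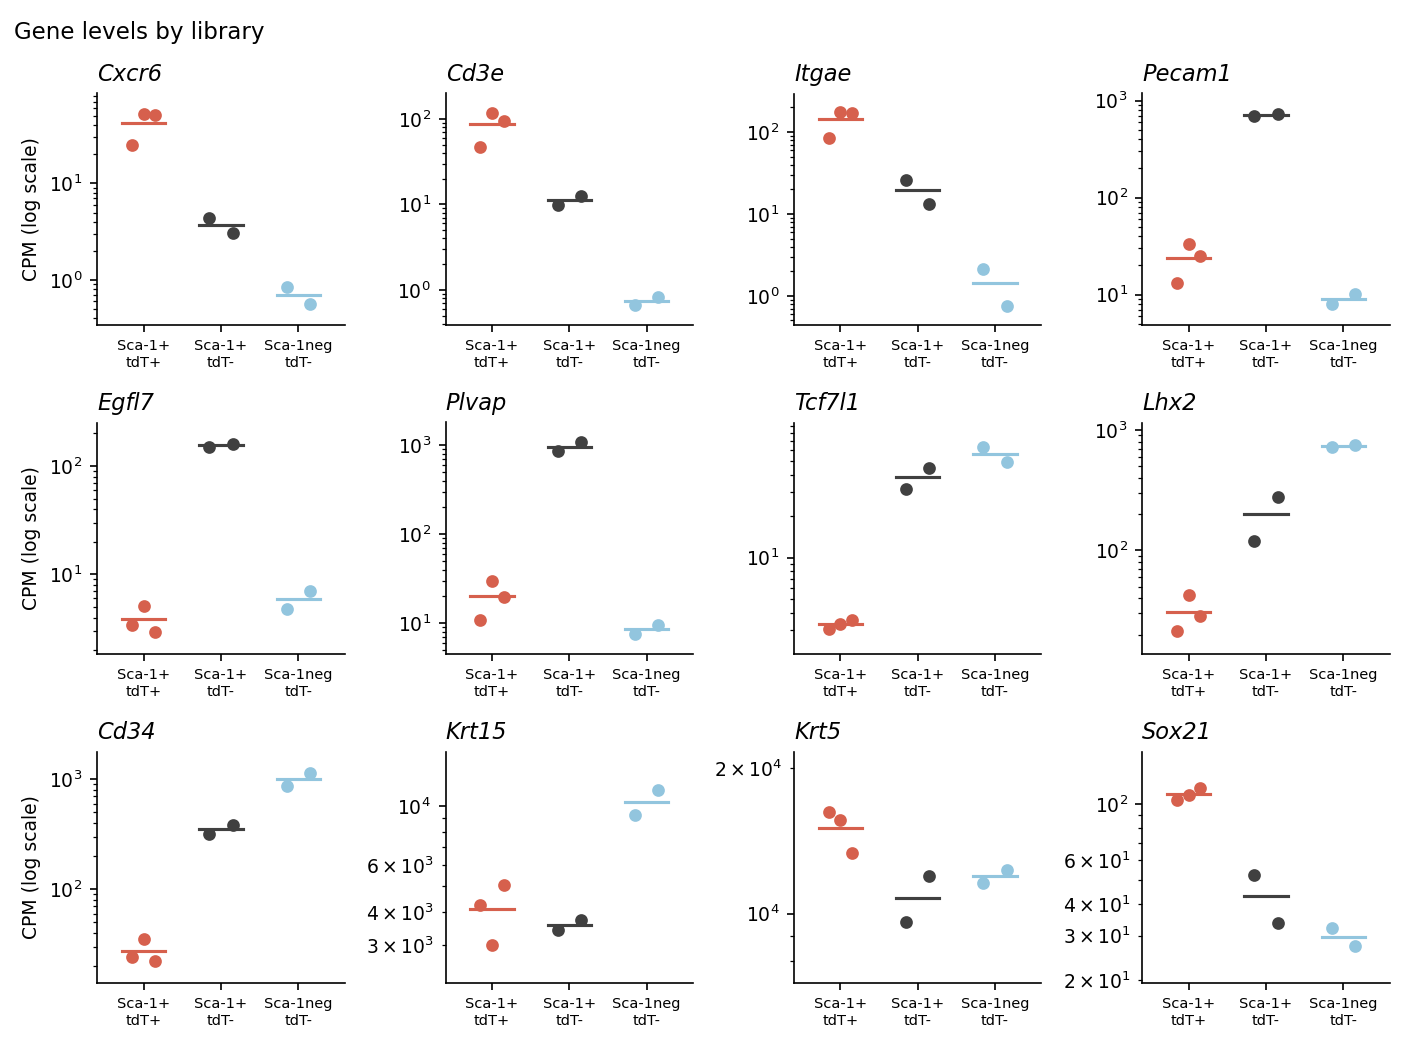
CPM (log scale) of 12 genes in each Sca-1+ tdT+ library (red), each Sca-1+ tdT- library (dark grey) and Sca-1neg tdT- replicates 1 and 3 (blue), with a line at each mean. Cxcr6, Cd3e and Itgae are highest in tdT+ (Cxcr6 24.8 to 52.4 CPM against 3.06 and 4.40 CPM), Pecam1, Egfl7 and Plvap are high in Sca-1+ tdT- alone of these 3 groups, Tcf7l1, Lhx2 and Cd34 are low in tdT+ alone, and Krt15 of tdT+ and tdT- overlaps.

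Outside the bulge, 0 of 12 upper follicle genes passed (median 0.00). Krt79, a keratin of the upper follicle, was 868 to 1031 CPM in tdT+ and 936 and 1016 CPM in tdT-, and Lrig1 was 242 to 302 CPM against 195 and 246 CPM. None of 22 genes of differentiating epidermis passed: Krt10 was 4725, 3204 and 5433 CPM against 3511 and 1334 CPM, and Krt1 was 3075 to 3314 CPM against 2396 and 1207 CPM, with a wide gap between the 2 untraced libraries. None of 12 sebaceous gland genes passed either. Of 23 hair shaft, root sheath and matrix genes 2 fell. Krt73, a keratin of the inner root sheath, was 0.746, 0.341 and 0.671 CPM against 34.8 and 37.5 CPM (-5.92 ± 0.70, adjusted p = 0.0013), and Dlx3, a homeodomain factor, was 5.28, 2.73 and 2.79 CPM against 13.8 and 18.7 CPM (adjusted p = 0.0255). Krt71, its neighbour in the same layer, was 97.9 CPM in tdT+ replicate 1 and 7.10 and 3.46 CPM in replicates 2 and 3, against 194 and 225 CPM, and did not pass (adjusted p = 0.473). Dropping tdT+ replicate 1 gave 5 lower genes on that list, and dropping any other Sca-1+ library gave 1 or 2.

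Of 27 basement membrane and hemidesmosome genes 6 fell and 0 rose (median -0.52), and 11 lay lower without overlap (17.2% of all genes tested did). Hspg2 (chromosome 4, 137468769 to 137570630), which encodes perlecan, was 110, 126 and 99.5 CPM in tdT+ and 659 and 859 CPM in tdT- libraries (-2.76 ± 0.21, adjusted p = 2.25e-04). The collagen IV genes Col4a1 and Col4a2, adjacent on chromosome 8, were 16.3, 24.6 and 23.9 CPM against 187 and 408 CPM and 14.9, 12.8 and 28.2 CPM against 164 and 323 CPM (-3.78 ± 0.50 and -3.71 ± 0.39). Lama4, a laminin chain of vessel walls, fell by 2.61, Col18a1 by 1.46 and Lamb2 by 1.22. Among members known from the hemidesmosome and its anchorage of keratinocytes, picked after their values were seen, groups overlapped: Col17a1 was 4048 to 7600 CPM in tdT+ and 4566 and 4257 CPM in tdT-, Itgb4 was 565 to 890 CPM against 788 and 871 CPM, and the laminin chain genes Lama3 and Lamb3 had adjusted p of 0.948 and 0.786. Among these 27 genes Nid1, a laminin-binding linker, was 4.18 to 9.60 CPM against 103 and 143 CPM and missed the threshold (adjusted p = 0.199, and 3.41e-04 in the fit of 5 libraries). Endothelial markers moved with Hspg2, Col4a1, Col4a2 and Lama4 (the pan-endothelial sum was 7421 and 8011 CPM in tdT- and at most 308 CPM in tdT+). So did bulge genes, as given above, and the part of either in these changes was not tested.

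A few genes of the lists for dermal cells fell. Of 18 tested fibroblast genes 4 fell and 0 rose: Sparc, a matrix glycoprotein, was 66.6, 67.2 and 54.4 CPM against 318 and 418 CPM (-2.55 ± 0.17, adjusted p = 8.09e-05), and Col6a1, Col6a2 and Col5a2 fell by 2.28, 3.04 and 2.78. In the Sca-1neg tdT- reference libraries Sparc was 452 and 436 CPM and Col6a1 535 and 458 CPM. The collagen I gene Col1a1, the main fibroblast collagen, was 5.62, 71.2 and 3.15 CPM in tdT+ and 51.4 and 131 CPM in tdT-, with overlap through tdT+ replicate 2 (adjusted p = 0.626). Dropping untraced replicate 2 left 2 of the 4 calls. The list summed to 167, 585 and 149.9 CPM in tdT+ and to 965 and 1572 CPM in tdT- libraries. Of 12 tested pericyte and smooth muscle genes (median -0.21, 5 above 0) 2 fell, Mcam (7.62, 11.2 and 3.82 CPM against 59.9 and 87.9 CPM) and Cspg4 (51.3, 42.8 and 67.6 CPM against 99.4 and 197 CPM), with adjusted p of 0.00408 and 0.0246. In the same reference libraries Col6a2 was 179.3 and 137.8 CPM, Col5a2 151.9 and 180.5, Cspg4 442 and 395, and Mcam 17.75 and 19.3. The pan-endothelial sum there was 114.7 and 137.1 CPM. In the comparison, the pan-endothelial sum (at most 308 CPM in tdT+ against 7421 and 8011 CPM in tdT-) moved with these 6 genes. So did bulge genes, as given above. The part of either in these changes was not tested. No melanocyte, Schwann cell, erythroid or liver gene passed.

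Of 28 tested Hox genes 2 fell and 0 rose. Hoxd8 was 1.81, 2.21 and 0.929 CPM against 23.2 and 25.3 CPM (-3.87 ± 0.33, adjusted p = 2.96e-04), and its neighbour Hoxd9 was 0.639, 0.0568 and 0.206 CPM against 13.0 and 17.7 CPM (-5.57 ± 0.87, adjusted p = 0.0066). Hoxd4 was 0.480, 0 and 0.361 CPM against 3.32 and 4.11 CPM and missed the threshold (adjusted p = 0.0584). No tested member of the other 3 clusters passed; Hoxc8, for 1, was 20.4 to 29.7 CPM against 20.2 and 34.4 CPM.

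The 60 higher genes on no list had smaller changes, with a median of 1.23 against 3.10 for the 20 on leukocyte lists. By lowest p they were led by Dgcr6 (126, 138 and 135 CPM against 63.8 and 53.3 CPM, log2 fold change 1.184 ± 0.153, adjusted p = 0.00238) and Hs3st6, a heparan sulfate sulfotransferase (65.0, 54.1 and 64.2 CPM against 28.5 and 21.6 CPM, 1.29 ± 0.19, adjusted p = 0.00536). Sox21, a factor of skin and hair epithelium, was 104, 108 and 116 CPM against 52.2 and 33.8 CPM (1.34 ± 0.23, adjusted p = 0.0116). In each of these genes, as in all 80 higher genes, the lowest traced library was above the highest untraced one. Other members of this set are known from lymphocytes: Pik3cd, the leukocyte PI3-kinase subunit, was 48.4, 106 and 87.0 CPM against 12.8 and 20.4 CPM (adjusted p = 0.0373), and the septin gene Sept1 was 21.2, 36.6 and 42.0 CPM against 6.23 and 6.24 CPM (adjusted p = 0.00618). Rgs2, a regulator of G protein signalling, was 114, 223 and 206 CPM against 63.0 and 46.6 CPM (adjusted p = 0.0134). Of the 20 higher genes on leukocyte lists, 19 had a mean in the Sca-1neg tdT- reference libraries under 0.1 of that in tdT+, and of the 60 on no list 15 did. The tdT+ libraries chose these genes, and the share over all genes tested was not computed. These ratios are therefore a description with no test.

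Chosen after their values were seen, 4 further genes of this set are named for their level in epithelium. Ly6d, a surface protein of keratinocytes, was 847, 1318 and 899.6 CPM in tdT+ and 456 and 389 CPM in tdT- libraries. S100a14, a calcium-binding protein of epithelia, was 702, 1048 and 787 CPM against 495 and 455 CPM. Pou3f1, a POU factor of keratinocytes, was 196, 150 and 229 CPM against 92.02 and 73.5 CPM, and the signalling gene Wnt4 was 210, 240 and 192 CPM against 112 and 128 CPM. All 4 had log2 fold changes between 0.83 and 1.27 and adjusted p from 0.0207 to 0.0476.

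The lower genes on no list were more varied. By lowest p, Cyp2d22, a cytochrome P450, was 3.09, 3.12 and 2.58 CPM against 33.6 and 29.6 CPM (-3.43 ± 0.21, adjusted p = 6.37e-05), and Hip1, an endocytic adaptor, was 21.8, 29.0 and 27.7 CPM against 141 and 156 CPM (-2.50 ± 0.16, adjusted p = 6.37e-05). Arhgap31, a GTPase-activating protein, was 5.62, 4.54 and 7.17 CPM against 148 and 132 CPM (-4.60 ± 0.36, adjusted p = 2.25e-04). In these 3 genes the replicates of each group differed by much less than the groups, and a choice by lowest p favours such genes. Among abundant genes with large changes, Fzd4, a receptor for Wnt ligands and norrin, was 1.86, 2.95 and 2.79 CPM against 61.5 and 64.7 CPM, and the receptor kinase gene Ret was 1.76, 2.50 and 1.91 CPM against 54.7 and 73.7 CPM. Prex2, Amigo2, Shank3 and Cavin2 fell by 5.03 to 5.60, and each lost its call in 12 or 14 of 22 alternatives. Sorbs2, an adaptor of the actin skeleton, was 1.89, 1.53 and 3.04 CPM against 80.2 and 81.9 CPM and was called in all 22.

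The lower genes can be described by where else in the series they were read. In the 2 reference libraries, where T cell genes summed to at most 20.5 CPM and pan-endothelial genes to at most 137 CPM, 337 of the 476 (70.8%) had a mean of at least 0.5 of that in Sca-1+ tdT- libraries, and 29 (6.09%) had under 0.1. Over the 14438 genes tested with at least 1 CPM in Sca-1+ tdT- the shares were 84.1% and 5.68%. The tdT- libraries chose these genes, so the ratios are a description with no test. Of the 18 lower keratinocyte-list genes 14 were at 0.5 or more and none under 0.1, whereas 3 of the 5 endothelium-list genes were under 0.1. The 4 keratinocyte-list genes in between were Krt73 and the basement membrane genes Hspg2, Col4a1 and Lama4. Of the 440 on no list, 315 were at 0.5 or more and 24 under 0.1. In these reference libraries Cyp2d22 was 39.9 and 38.3 CPM (a ratio of 1.24 in the means), Sorbs2 45.5 and 46.8 CPM (0.569) and Hip1 71.7 and 68.2 CPM (0.472), whereas Egfl7 was 4.75 and 7.07 CPM (0.0381) and Amigo2 0.868 and 1.17 CPM (0.0147).

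**Figure D5:**
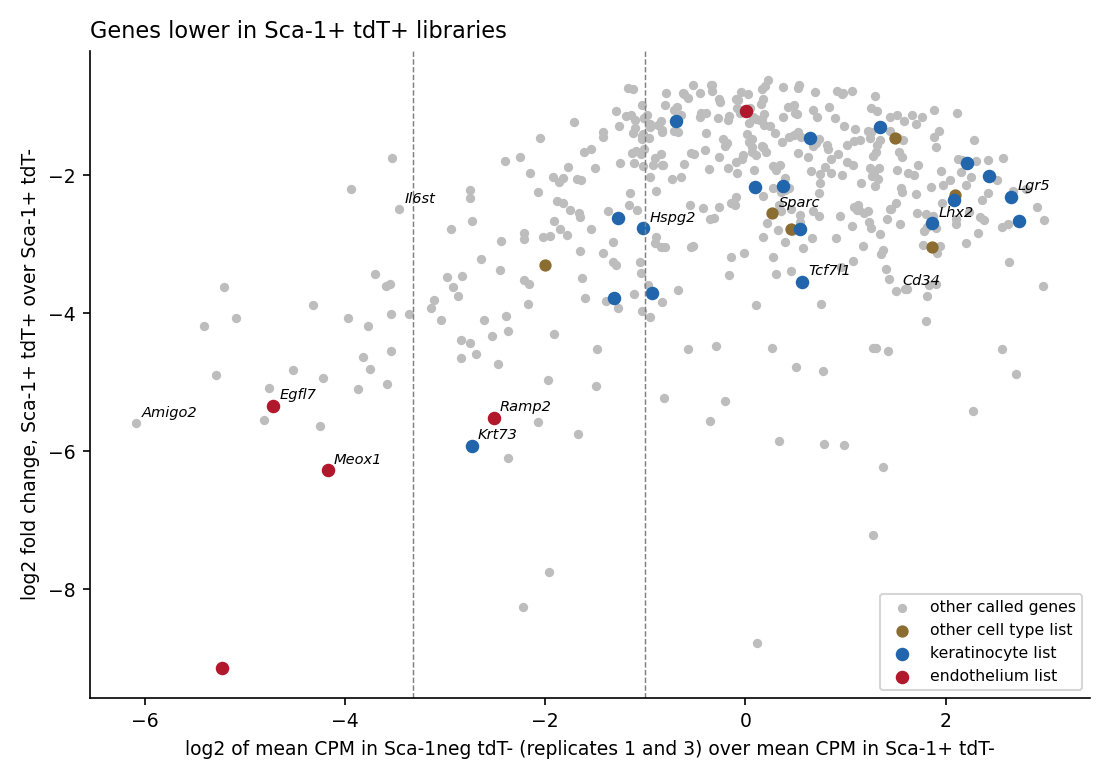
The 476 genes lower in Sca-1+ tdT+ libraries, by the log2 ratio of their mean CPM in Sca-1neg tdT- replicates 1 and 3 to that in Sca-1+ tdT- (horizontal) and their log2 fold change in the comparison (vertical), with dashed lines at ratios of 0.1 and 0.5. Genes of keratinocyte lists (blue, basement membrane genes among them) lie mostly to the right of 0.5 (14 of 18, 77.8%). Over all genes tested with at least 1 CPM in Sca-1+ tdT- that share was 84.1%. Egfl7, Meox1 and Tcf15 (lowest point) lie left of 0.1.

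Of the sort markers, the transcript of 1 differed. Cd34 (chromosome 1, 194938819 to 194961279) was 24.3, 35.7 and 22.4 CPM in tdT+ and 320 and 383 CPM in tdT- libraries (-3.68 ± 0.32, adjusted p = 2.96e-04), and the 2 reference libraries had 864 and 1130 CPM, although CD34 protein was part of the gate for every library. Its call held in all 22 alternatives. Itga6 was 1276, 988 and 1260 CPM against 1021 and 932 CPM, and Ly6a was 158, 294 and 153 CPM against 186 and 172 CPM; both overlapped between groups. Cd34 is expressed by bulge keratinocytes and by endothelium, and markers of both moved with it, as given above; their parts in the change of Cd34 were not tested.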

How the data were processed

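Per the submitters' processing notes, the tools were STAR, featureCounts, FastQC, bcl2fastq (2.20.0.422) and DESeq2 (1.18.1), and the build was mm10. No source used here names the annotation release, the strand setting or the treatment of multi-mapped reads, so overlapping and antisense genes may share reads. The files deposited by the authors hold raw counts per gene for 55536 Ensembl genes plus 1 entry under a protein identifier, taken for the tracer because of its levels, and kept out of gene tests; its CPM are shares of the total count. Symbols, types and coordinates come from GENCODE M21 (GRCm38, the sequence of mm10), and all 55536 genes matched.

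Counts of all 11 libraries were fitted in R 4.3.3 with edgeR 4.0.16: filterByExpr by group left 20307 genes, with TMM scaling, robust glmQLFit on 4 group means (7 residual degrees of freedom), glmQLFTest for Sca-1+ tdT+ minus Sca-1+ tdT-, and Benjamini-Hochberg adjustment with a threshold of 0.05. Log2 fold changes carry an SE computed as their size over the square root of F. Gene CPM are TMM-scaled. Levels per kilobase divide CPM by merged exon length. The script was tested on simulated data.

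The groups, 34 gene lists (633 memberships, of which 632 were found, with Hoxc13 on 2 lists) and named-gene rule were chosen with earlier results of these data known. The rule took, without overlap between groups, 8 genes a direction by size of change from 5 CPM, 10 from 50 CPM, 8 by lowest p, and up to 5 called members a list or else its 3 most abundant, with some left out of the text. The sort markers, Cd4 and the tracer were added. Members of lists printed outside this rule were chosen after their values were seen. Alternatives were DESeq2 1.42.0 (Wald test, or its size factors), library size alone, voom of limma 3.58.1 with quality weights, other filters, replicate or age terms, subsets of libraries and leaving out each library. No outlier test applies to groups of 3 and 2.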

Additional observations from a re-analysis of the deposited data

How the results depend on the processing

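The 556 called genes (80 higher, 476 lower) became 957 (142 and 815) with only the 5 Sca-1+ libraries, 1286 (181 and 1105) without the 3 libraries with liver transcripts, 1443 (341 and 1102) with DESeq2, 1161 (244 and 917) with voom, and 64 (7 and 57) in the 32-week libraries alone, where the lone untraced library takes its spread from the other groups. Of the 556, 459, 544, 556, 495 and 63 were called again in these fits. The cause was not tested. Leaving out 1 library at a time gave from 145 to 791 genes, 1 to 112 higher and 144 to 679 lower; the lowest of each came when untraced Sca-1+ replicate 2 was dropped and the highest when Sca-1neg tdT+ replicate 3 was. Dropping traced Sca-1+ replicates 1, 2 and 3 gave 361, 442 and 331 (54, 26 and 24 higher), dropping untraced Sca-1+ replicate 1 gave 301 (17 higher), and dropping Sca-1neg tdT- replicate 1 gave 393 (48 higher). DESeq2 size factors, library size alone, no filter, a minimum of 10 CPM in 2 libraries and age in the model gave 471 to 639. The labels do not say that a shared replicate number marks shared animals, and a replicate block gave 502 (59 higher and 443 lower, 424 of the 556 again). The same-numbered libraries of the 2 pairs had correlated deviations of 0.150 and 0.138. Deviations of 2 untraced libraries from their mean mirror each other, so the pairs of unlike number gave -0.15 and -0.138 by construction. Traced replicate 3 gave 0.0212 and -0.0212 with untraced replicates 1 and 2. Replicate 1 also differs in age from the others. Of 72 named genes that were called, 14 were called in all 22 alternatives and none changed direction; of 57 not called, 9 passed in some alternative. Every called gene had no overlap between the groups, so leaving out a library could hardly reverse its direction. The 2 untraced libraries limit what can be seen for genes that differ between them, such as macrophage genes.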

Other observations

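Some gene groups set single libraries apart within a group. Within Sca-1+ tdT+, replicate 2 had the highest level for 22 of 25 tested T cell genes, 22 of 26 pan-leukocyte genes, 15 of 18 dermal fibroblast genes and 27 of 28 proliferation genes, and replicate 1 had the lowest level for 20 of the T cell genes and 24 of the pan-leukocyte genes. Col1a1 and Col3a1, the main dermal collagens, were 71.2 and 126 CPM in replicate 2 against 5.62 and 10.9 CPM in replicate 1 and 3.15 and 17.5 CPM in replicate 3. Mki67, a marker of cycling cells, was 298 CPM in tdT+ replicate 2 and 139 CPM in replicate 3, with 205 and 256 CPM in tdT-, and none of the 28 proliferation genes passed. Replicate 1 had the highest level for 17 of 23 hair shaft, root sheath and matrix genes, such as the medulla and root sheath protein gene Tchh at 110 CPM against 9.88 and 12.8 CPM in replicates 2 and 3.

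Of 75 tested cytosolic ribosomal protein genes 0 passed with edgeR and 14 were higher with DESeq2 (1.68% of all genes tested were). Their median log2 fold change was 0.68, and 57 lay higher in tdT+ without overlap (15.8% of all genes tested did). Rpl8 was 1224, 1801 and 1319 CPM in tdT+ and 847 and 928 CPM in tdT-, and 58 of the 75 were highest in tdT+ replicate 2. Of 17 interferon-stimulated genes and 19 immediate early and heat shock genes 0 passed. Egr1, an immediate early gene of cell dissociation, was 2068 to 2931 CPM in tdT+ and 2025 and 2216 CPM in tdT- libraries.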
